A study of Homo sapiens with 12 samples.

Results

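The genes described here are 10 transcriptional outputs and feedback inhibitors of the ERK pathway, namely the phosphatases DUSP4, DUSP5 and DUSP6, the Sprouty genes SPRY1, SPRY2 and SPRY4, the SPRED genes SPRED1 and SPRED2, and the ETS transcription factors ETV4 and ETV5. They were chosen by name, with earlier results of these data known, and were taken as the rows of the deposited tables whose Ensembl identifier maps to these symbols in GENCODE 44, and all 10 were found among 59248 rows. Of these genes, 9 had enough counts to be tested and DUSP6 did not. The cells are SJSA-1, an established human osteosarcoma line, sequenced as 6 libraries stably expressing a scramble shRNA (shNC) and 6 libraries stably expressing the RUNX2 shRNA sh1. Both groups were infected with a lentiviral vector that also carries EGFP and puromycin resistance and were selected with puromycin. The comparison thus sets 1 shRNA against 1 control shRNA, in infected populations and not in single clones. Effects of sh1 other than on RUNX2, and differences between the selected populations, cannot be told apart from those of RUNX2 silencing. Nothing in the sources used here ties the 6 libraries of a group to separate cultures. The spread on which the p-values rest is thus that of the sequenced libraries and may be technical.

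Growth factor receptors activate Ras, and Ras passes the signal through the kinases RAF and MEK to ERK. Active ERK switches on genes whose products then damp the same pathway. DUSP phosphatases remove the phosphates from ERK, Sprouty proteins act between the receptor and RAF, SPRED proteins bring the Ras inactivator NF1 to the membrane, and ETV4 and ETV5 are PEA3-type transcription factors that carry the response further. The messenger RNAs of these genes are often read as a gauge of ERK activity, and RUNX2, the osteoblast transcription factor, is itself a known substrate of ERK in bone cells. The phosphorylation of ERK was not measured in these data.

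The total gene count per library was 15328312 to 19992974 in shNC (median 17555418) and 11239638 to 16346022 in sh1 (median 15451506). The lowest total is that of sh1 replicate 3, in which rows without an Ensembl identifier also took 1.23% of the counts. The same 6 of the 10 genes were called lower with and without this library. RUNX2 was lower in every sh1 library (21.5 to 27.3 CPM, counts scaled to a common library total after TMM normalization) than in every shNC library (35.4 to 46.0), with a log2 fold change of -0.69 and a standard error (SE) of 0.076. Of the genes that mark this line, SPARC, MDM2 and CDK4 were abundant, while the osteoblast genes IBSP, SP7, ALPL and BGLAP had at most 0, 1, 1 and 5 counts in any library. Some of these markers also differed between the groups. COL1A1, a collagen of bone matrix, was at 3.78 to 7.88 CPM in shNC and 8.55 to 19.1 CPM in sh1 (log2 fold change 1.49, adjusted p = 2.3e-05), and SPARC (0.66, adjusted p = 5.6e-07) and MDM2 (0.30, adjusted p = 0.0042) were higher too. The part of this in the results for the ERK genes was not tested. All 4 epithelial markers examined together reached at most 0.318 CPM in any library and all 4 blood cell markers at most 0.391 CPM. The 3 endothelial markers summed to 1.74 to 4.94 CPM in shNC and 2.57 to 5.21 CPM in sh1.

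Of the 10 genes, 6 were lower in sh1 and none was higher. They were both expressed phosphatases (DUSP4 and DUSP5), both ETS factors (ETV4 and ETV5), SPRY4 and SPRED2. SPRY1, SPRY2 and SPRED1 did not pass the test. The largest change was that of DUSP4, which was at 54.0% of its shNC level, and the smallest change that passed was that of ETV5, which was at 85.6%. The test was edgeR's quasi-likelihood test over 16489 genes, with Benjamini-Hochberg adjustment and a call at an adjusted p under 0.05.

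Against the 9 tested genes, of which 6 were called lower, 13.3% of all tested genes were called lower. For calls in the other direction the share of all tested genes was 12.8%, and the count among the 9 was 0 (1 at an unadjusted p under 0.05, and 0 with DESeq2). That 1 gene was SPRED1. Its unadjusted edgeR p of 0.029 ranked only 5371 among all tested genes, so unadjusted calls were common. Either direction was called in 26.1% of all tested genes. The median log2 fold change, sh1 over shNC, of the 9 genes was -0.27, and that of all tested genes was -0.0035. None of the 9 reached a 2-fold fall at an adjusted p under 0.05 with edgeR (0 also at an unadjusted p under 0.05, and 0 with DESeq2), where 0.885% of all tested genes did. A 2-fold rise was likewise seen in 0 of the 9 (0 at an unadjusted p under 0.05, and 0 with DESeq2) and in 1.2% of all tested genes. In 3 of the 9 genes, DUSP4, ETV4 and SPRED2, every sh1 library lay below every shNC library, which was the case in 6.08% of all tested genes. In 0 of the 9 did every sh1 library lie above every shNC library, against 5.84% of all tested genes, and 11.9% of all tested genes had groups that did not overlap in either direction.

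**Figure D1:**
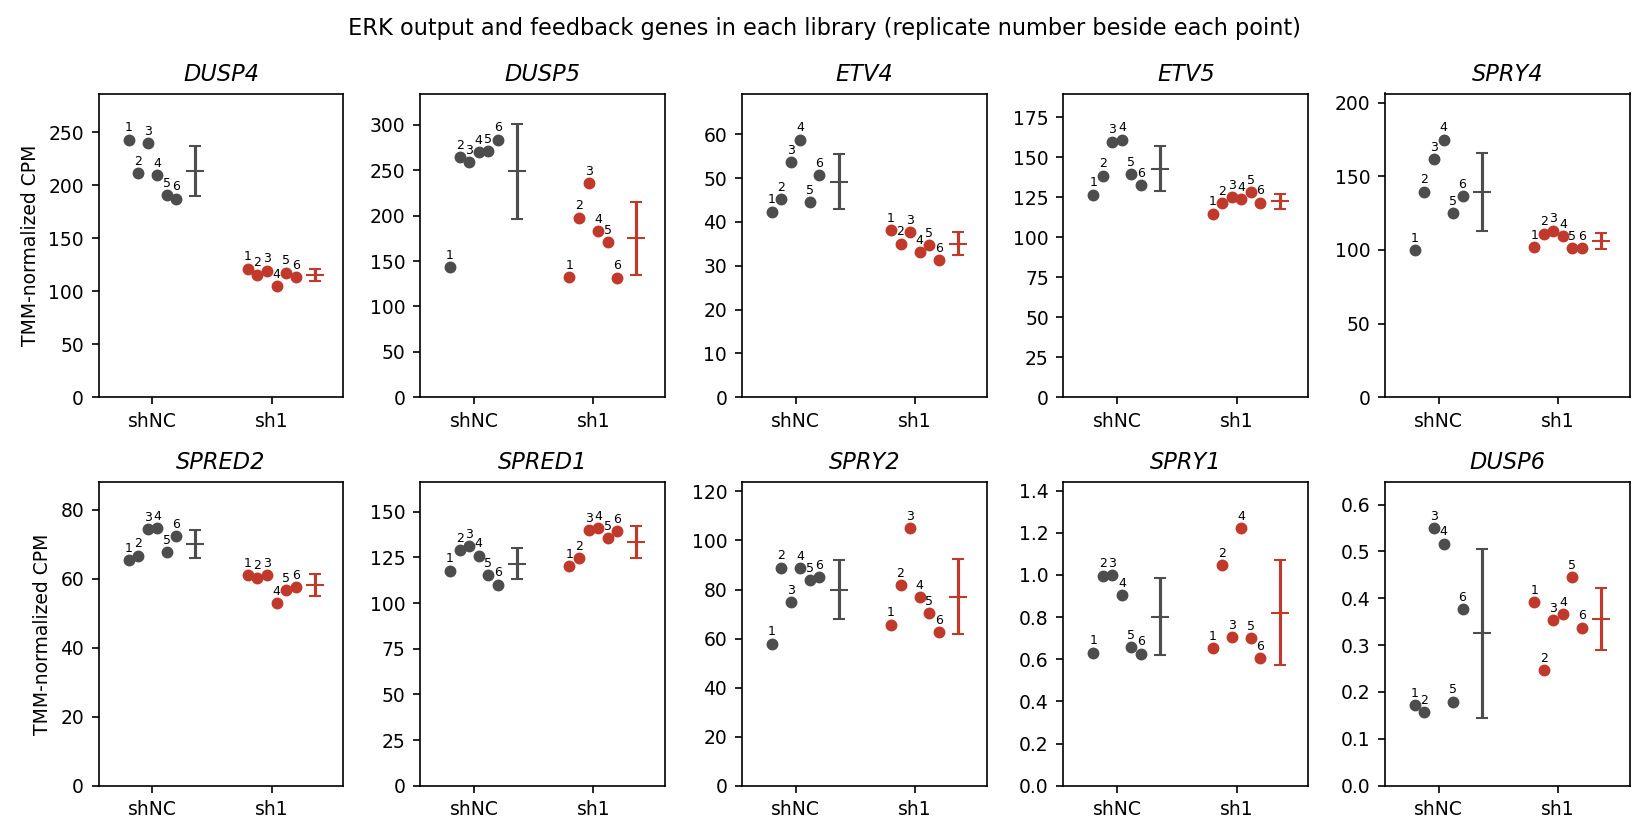
TMM-normalized CPM of the 10 genes in each shNC (grey) and sh1 (red) library, with replicate numbers beside the points. Bars show group mean and SD (n = 6). The sh1 points of DUSP4 lie between 105 and 121, below all shNC points, and those of DUSP5, ETV5 and SPRY4 reach into the shNC range.

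**Figure D2:**
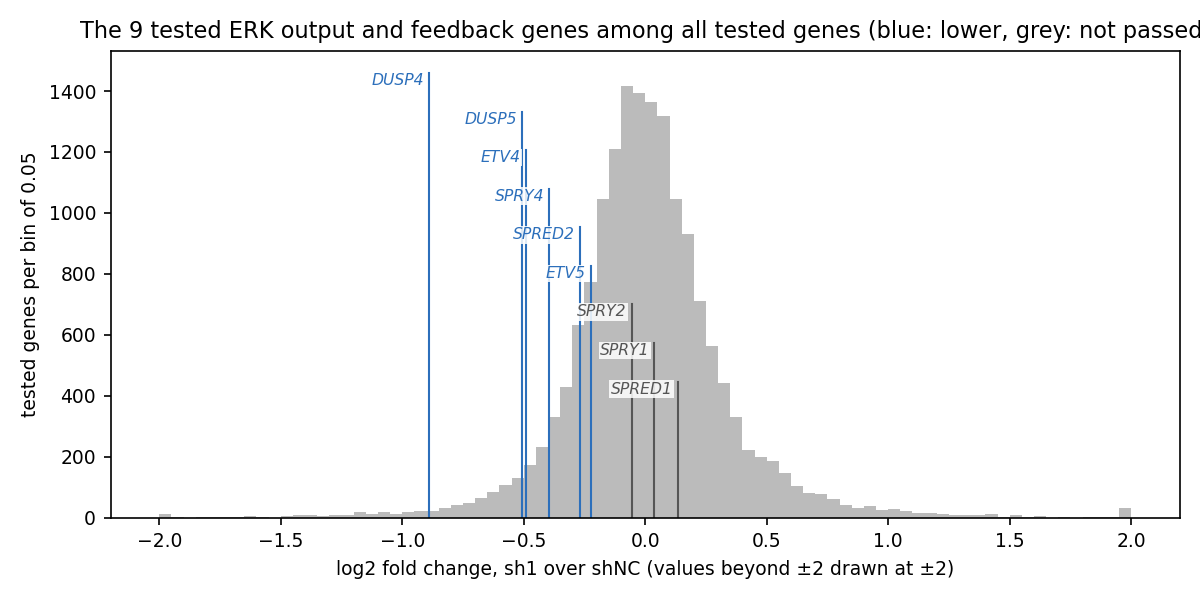
Histogram of the log2 fold change, sh1 over shNC, of 16489 tested genes, with lines for the 9 tested ERK output and feedback genes. Lines of genes called lower are blue and run from -0.89 for DUSP4 to -0.22 for ETV5, and lines of genes that did not pass are grey.

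Both phosphatases with appreciable RNA were lower in sh1, and they differed in how evenly. DUSP4 (ENSG00000120875, chromosome 8, 29333064 to 29350684, minus strand, GRCh38) encodes a nuclear dual-specificity phosphatase of ERK and of other MAP kinases. Its level was 187 to 243 CPM in shNC (median 210.4) and 105 to 121 CPM in sh1 (median 117). Every sh1 library was therefore below every shNC library. The log2 fold change was -0.89 (edgeR, SE 0.066, adjusted p = 4.4e-08), and by p-value it ranked 30 among the 16489 tested genes. Within sh1 the libraries were close to each other, with an SD of 5.12% of the mean, against 11.1% in shNC. Over 24 alternative settings its log2 fold change stayed between -0.93 and -0.83, and it was called lower in all 24.

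DUSP5 (ENSG00000138166, chromosome 10, 110497907 to 110511533, plus strand) encodes a nuclear phosphatase that is selective for ERK. Its level was 143 to 284 CPM in shNC (median 268) and 132 to 236 CPM in sh1 (median 177). Of the shNC libraries, 5 were at 259 CPM or above, higher than every sh1 library, while shNC replicate 1 was at 143 CPM, inside the sh1 range. The log2 fold change was -0.51 (edgeR, SE 0.15, adjusted p = 0.020). Without shNC replicate 1 it was -0.62 (adjusted p = 0.00064). The call was lost without sh1 replicate 1 (-0.43, adjusted p = 0.057) and without sh1 replicate 6 (-0.43, adjusted p = 0.056), the sh1 libraries with the lowest DUSP5.

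DUSP6 (ENSG00000139318, chromosome 12, 89347235 to 89352501, minus strand), the cytoplasmic ERK phosphatase that is often used as a readout of the pathway, had almost no RNA in either group. Its counts were 3 to 11 per library, or 0.157 to 0.549 CPM in shNC (median 0.278) and 0.246 to 0.445 CPM in sh1 (median 0.359). The groups overlapped, and the gene did not pass the filter on low counts. Without that filter its log2 fold change was 0.13 (edgeR, SE 0.42, adjusted p = 0.91) on 3 to 11 counts, so a difference of the size seen for DUSP5 was not detectable at this depth.

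Both ETS factors were lower in sh1. ETV4 (ENSG00000175832, chromosome 17, 43527844 to 43579620, minus strand) was at 42.3 to 58.7 CPM in shNC (median 47.9) and at 31.3 to 38.1 CPM in sh1 (median 34.9), with no overlap. Its log2 fold change was -0.49 (edgeR, SE 0.080, adjusted p = 0.00020), and it was called lower under all 24 alternatives. ETV5 (ENSG00000244405, chromosome 3, 186046314 to 186110318, minus strand) was at 127 to 161 CPM in shNC (median 139) and at 115 to 128 CPM in sh1 (median 123). The groups met only at their edges, through shNC replicate 1 at 127 CPM and sh1 replicate 5 at 128 CPM. The log2 fold change of ETV5 was -0.22 (edgeR, SE 0.059, adjusted p = 0.0094), a call lost only in unfiltered limma on log2(FPKM + 1) among 24 alternatives (adjusted p = 0.094). ETV4 shares 68 exonic bases with DHX8 on the opposite strand (log2 fold change 0.013), and ETV5 shares 164 exonic bases with DGKG on the same strand (-0.28, adjusted p = 0.017). The library kit does not keep strand, and which gene such shared reads were given to was not tested.

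Among the Sprouty genes, SPRY4 was lower, SPRY2 did not pass the test and SPRY1 was close to absent. SPRY4 (ENSG00000187678, chromosome 5, 142310427 to 142326455, minus strand) was at 100.01 to 175 CPM in shNC (median 138) and at 101 to 113 CPM in sh1 (median 106). As with DUSP5, shNC replicate 1 was the lowest control library, at 100.01 CPM, and the other 5 shNC libraries lay at 125 CPM or above, higher than every sh1 library. The log2 fold change was -0.39 (edgeR, SE 0.097, adjusted p = 0.0058) and -0.47 without shNC replicate 1 (adjusted p = 0.00013). Of 24 alternatives, unfiltered limma on log2(FPKM + 1) ended this call (adjusted p = 0.11). The sh1 libraries again lay close together, with an SD of 5.15% of the mean against 18.99% in shNC.

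SPRY2 (ENSG00000136158, chromosome 13, 80335976 to 80341126, minus strand) was at 57.9 to 89.0 CPM in shNC (median 84.5) and at 62.7 to 105 CPM in sh1 (median 73.6). Its lowest library was a control, shNC replicate 1, and its highest was sh1 replicate 3. The log2 fold change was -0.055 (edgeR, SE 0.12, adjusted p = 0.76), and -0.13 without shNC replicate 1 and -0.15 without sh1 replicate 3 (adjusted p = 0.37 and 0.29). SPRY1 (ENSG00000164056, chromosome 4, 123396795 to 123403760, plus strand) had 8 to 20 counts per library, or 0.627 to 0.999 CPM in shNC (median 0.781) and 0.607 to 1.22 CPM in sh1 (median 0.702). The groups overlapped, with 1 sh1 library below and 2 above the shNC range. Its log2 fold change of 0.038 had an SE of 0.24 (edgeR, adjusted p = 0.93).

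The SPRED genes did not move together. SPRED2 (ENSG00000198369, chromosome 2, 65310851 to 65432637, minus strand) was at 65.3 to 74.6 CPM in shNC (median 70.0) and at 53.0 to 61.0 CPM in sh1 (median 58.9), so that the groups did not overlap. The log2 fold change was -0.27 (edgeR, SE 0.054, adjusted p = 0.0013), and the gene was called lower under all 24 alternatives. SPRED1 (ENSG00000166068, chromosome 15, 38252836 to 38357249, plus strand) was at 110.1 to 131 CPM in shNC (median 122) and at 120.1 to 141 CPM in sh1 (median 137). The groups overlapped, with 4 of the 6 sh1 libraries above all shNC libraries. Its log2 fold change of 0.13 (SE 0.056) did not pass the test (adjusted p = 0.088 from edgeR), but did without shNC replicate 3 (0.17, adjusted p = 0.047) and without sh1 replicate 1 (0.17, adjusted p = 0.029).

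Promoter sequences from RefSeq (GRCh38.p14, 250 bases before to 50 bases after a start site) were matched by symbol for 6 of the 10 genes, DUSP6, SPRY1, SPRY2, SPRY4, SPRED1 and SPRED2, with 10 promoters in all. Those of SPRY4 and SPRED2 are shown because these are the matched genes that were lower in sh1. SPRED2 has start sites in 2 places, and its downstream promoter was the only one of the 10 with a match to any motif searched. The sequences run 5′ to 3′ on the minus strand from the 250th base before the start site to its first transcribed base, with motif matches in capitals.
SPRY4, chr5:142324247-142324497: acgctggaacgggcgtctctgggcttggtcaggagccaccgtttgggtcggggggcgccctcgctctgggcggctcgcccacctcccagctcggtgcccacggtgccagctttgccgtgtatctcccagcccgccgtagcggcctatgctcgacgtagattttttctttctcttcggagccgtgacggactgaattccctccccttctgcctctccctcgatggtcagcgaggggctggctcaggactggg
SPRED2 upstream start, chr2:65432599-65432849: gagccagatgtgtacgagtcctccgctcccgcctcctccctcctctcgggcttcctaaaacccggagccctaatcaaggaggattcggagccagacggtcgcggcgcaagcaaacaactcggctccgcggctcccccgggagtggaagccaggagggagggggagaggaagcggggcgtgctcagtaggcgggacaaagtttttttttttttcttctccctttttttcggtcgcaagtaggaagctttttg
SPRED2 downstream start, chr2:65366778-65367028: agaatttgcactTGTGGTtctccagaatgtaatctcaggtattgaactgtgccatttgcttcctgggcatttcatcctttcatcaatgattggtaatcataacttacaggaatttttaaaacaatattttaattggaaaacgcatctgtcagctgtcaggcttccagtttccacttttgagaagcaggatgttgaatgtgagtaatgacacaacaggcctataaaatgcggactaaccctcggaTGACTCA

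The capitals in the downstream SPRED2 promoter mark TGTGGT, the core of the RUNX motif, 238 bases before the start. They also mark TGACTCA, a match to the AP-1 motif, from 6 bases before it. Counts per gene cannot show whether this downstream start is used in these cells, and binding at either match was not tested. The AP-1 motif was searched as TGANTCA, and another match, which begins at base 35 after the start, lies outside the stretch shown. Both strands of all 10 promoters were searched. TGTGGT was held by 1 of these 10 promoters and by 13.1% of 35116 promoters of all genes, and TGANTCA by 1 of 10 and by 7.71% of all. The CIC octamers TGAATGAA and TCAATGAA, which the repressor CIC binds at ETV and DUSP genes, and the ETS motif CCGGAAGT had no match in the 10 promoters (1.65%, 0.718% and 4.14% of all promoters hold them). With shares this low, 10 promoters are too few to read anything from the lack of a match. No promoter of ETV4, ETV5, DUSP4 or DUSP5 was among the 10, so CIC sites at these genes were not examined. No motif searched overlapped another where both matched.

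On a scale that can be compared between genes, FPKM (counts divided by gene length and by library total), the 10 genes covered a wide range of levels. DUSP5 had the highest level in both groups, 94.9 ± 20.8 FPKM (SD, n = 6) in shNC and 67.3 ± 15.4 FPKM (SD, n = 6) in sh1, with no overlap with the next gene in either group. In shNC it was followed by DUSP4 (29.2 ± 3.07 FPKM), SPRY2 (26.2 ± 4.24 FPKM), ETV5 (24.5 ± 2.74 FPKM) and SPRY4 (21.2 ± 4.33 FPKM). The ranges of each of these neighbours overlapped, and DUSP4 was above SPRY2 in only 2 of 6 libraries by matched library. SPRED1 (14.6 ± 1.15 FPKM), ETV4 (13.6 ± 1.93 FPKM) and SPRED2 (13.5 ± 0.976 FPKM) came next, with ranges that overlapped between neighbours. SPRY1 (0.202 FPKM) and DUSP6 (0.0702 FPKM) were far below the other 8 genes.

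In sh1 the order was DUSP5, SPRY2 (25.5 ± 5.12 FPKM), ETV5 (21.2 ± 0.791 FPKM), SPRY4 (16.3 ± 0.826 FPKM), SPRED1 (16.2 ± 1.10 FPKM), DUSP4 (15.97 ± 0.843 FPKM), SPRED2 (11.4 ± 0.629 FPKM) and ETV4 (9.75 ± 0.731 FPKM), with SPRY1 (0.208 FPKM) and DUSP6 (0.0774 FPKM) last. DUSP4 thus stood in place 2 in shNC and in place 6 in sh1. In sh1 the ranges of SPRY4, SPRED1 and DUSP4 overlapped as neighbours, as did those of SPRY2 and ETV5 and those of SPRED2 and ETV4, while ETV5 lay above SPRY4 and DUSP4 above SPRED2 in every library without overlap.

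**Figure D3:**
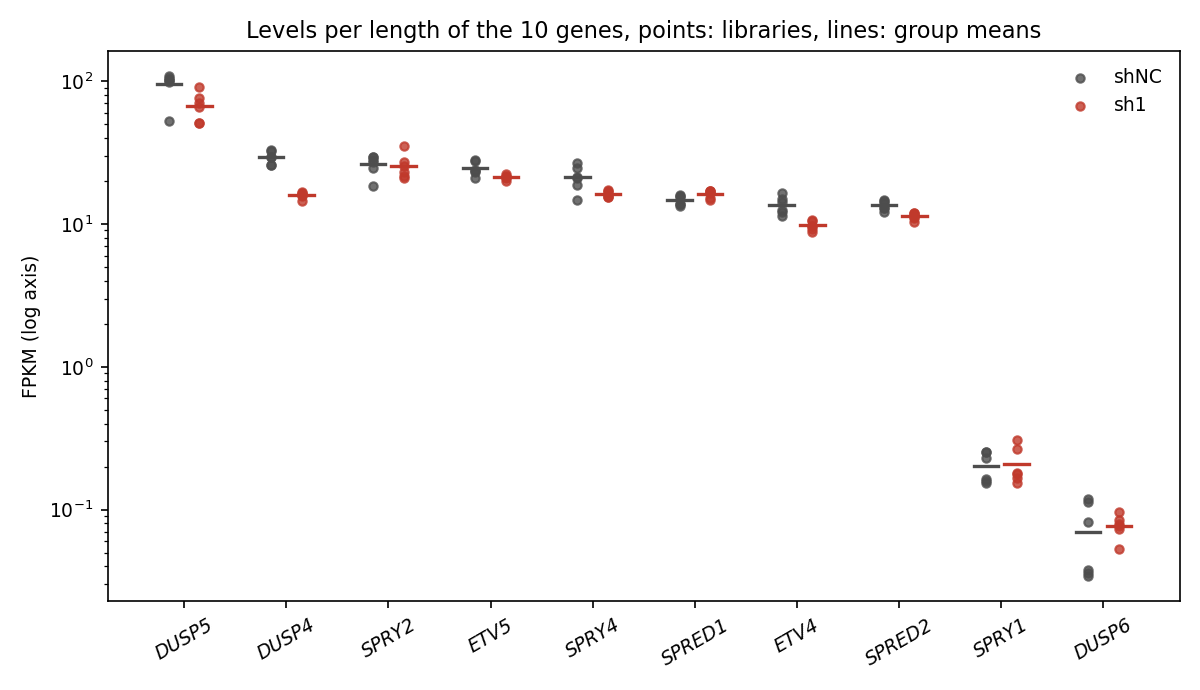
FPKM on a log axis for the 10 genes in the order of their shNC means, with points for libraries and lines for group means of shNC (grey) and sh1 (red). DUSP5 lies at the top with means of 94.9 and 67.3, and SPRY1 and DUSP6 lie below 0.4 in every library.

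The libraries of a group did not all deviate in the same way. In shNC replicate 1, DUSP5 was 0.51, SPRY2 0.42 and SPRY4 0.27 below the gene's mean over the 12 libraries on the log2 CPM scale, and each of these was the lowest control value of its gene. In the same library DUSP4 was 0.64 above its mean, the highest of all 12. Mitochondrial genes took 4.39% of the counts in shNC replicate 1, the highest share of all 12, and 3.28% to 3.80% in the other controls. The immediate early genes EGR1 and FOS, whose transcription responds within minutes to ERK, were named here after their values were seen, and shNC replicate 1 had the lowest level of both. EGR1 was at 13.7 CPM in this library and at 34.3 to 47.7 CPM in the other shNC libraries, and FOS was at 1.32 CPM and at 2.80 to 7.15 CPM. In sh1, EGR1 was at 23.5 to 48.4 CPM and FOS at 2.22 to 7.76 CPM. The part that differences between libraries of this kind have in the results for DUSP5 and SPRY4 was not tested beyond leaving libraries out. Without shNC replicate 1 both genes were further below 0. On the same scale, sh1 replicates 1 and 6 were low in DUSP5 (-0.63 in each), EGR1 (-0.26 and -0.52) and FOS (-0.72 and -0.59). In sh1 replicate 3 these genes were at 0.21, 0.46 and 1.09, and in sh1 replicate 4 at -0.16, 0.53 and 0.074. Other ERK-induced genes did not share 1 pattern in sh1 replicates 1 and 6. IER3 (109 CPM) and EPHA2 (596 CPM) had their highest level of all 12 libraries in sh1 replicate 1. In sh1 replicate 6, PHLDA1 had its highest sh1 level (644 CPM) and FOSL1 its lowest (222 CPM). Without sh1 replicate 1 or 6 the DUSP5 call was lost (-0.43 in each, edgeR adjusted p = 0.057 and 0.056). ETV4, ETV5 and SPRED2 also had their lowest control value in shNC replicate 1, at 42.3, 127 and 65.3 CPM. For ETV4 and SPRED2 that value was still above every sh1 library.

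**Figure D4:**
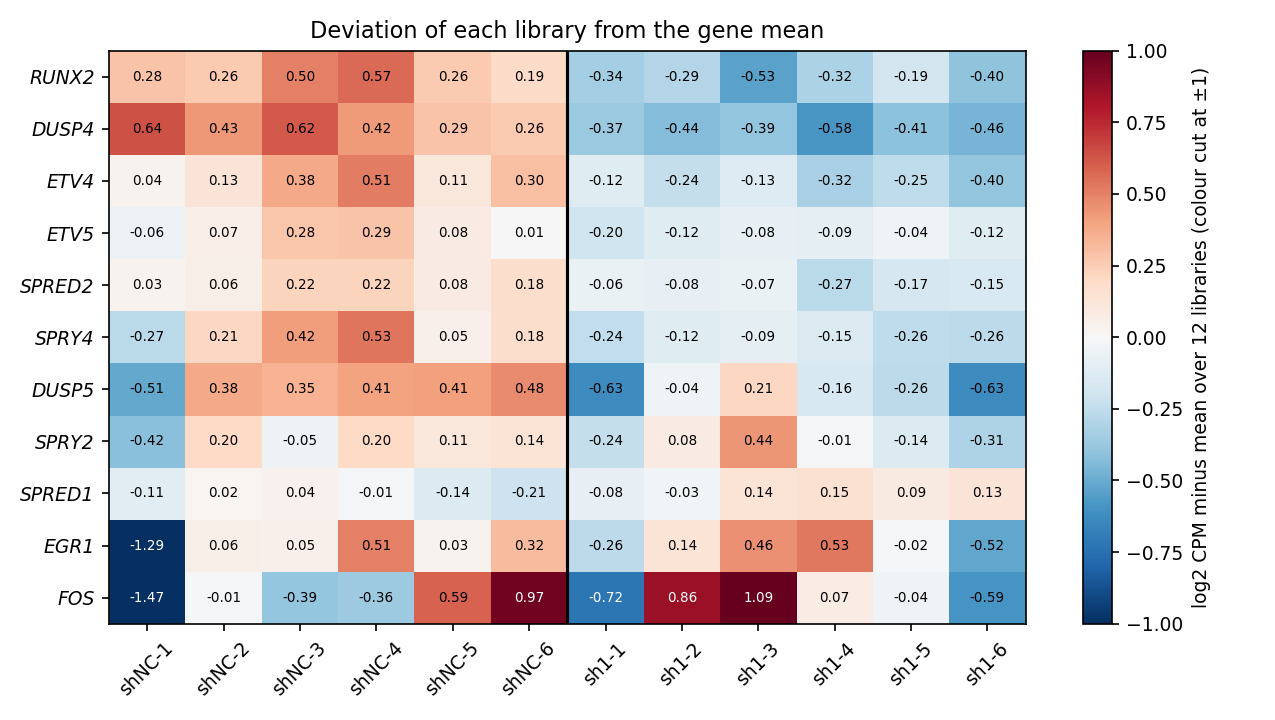
Log2 CPM of each library minus the gene's mean over the 12 libraries, for RUNX2, the 8 ERK output and feedback genes that are not near 0, EGR1 and FOS, from blue (below) to red (above). The left block is shNC and the right block sh1, and shNC-1 is blue for DUSP5, SPRY2, SPRY4, EGR1 and FOS but red for DUSP4.

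The genes whose profile over the 12 libraries was most like that of DUSP4 were found by the root mean square difference of log2 CPM after centring each gene on its own mean. Among tested genes with a symbol, the closest were SOX9, the chondrocyte transcription factor (difference 0.112, log2 fold change -0.81), and the drug efflux transporter ABCG2 (0.116, -0.75). Next came the clock transcription factor NPAS2 (0.125, -0.79), PLEK2 (0.136, -0.88) and the autophagy protein ATG13 (0.137, -0.70). SOX9 fell from 173 ± 9.80 CPM in shNC to 99.1 ± 4.12 CPM in sh1 (SD, n = 6 each). ABCG2 and PLEK2 were at low levels, with means of 5.03 and 3.55 CPM in shNC and 2.98 and 1.94 CPM in sh1. Of the other ERK output and feedback genes, ETV4 was nearest to DUSP4 (0.261) and SPRY1 was farthest (0.552). All of these differences are over the same 12 libraries and are given as a description. The step between the groups is part of the measure, so genes picked as close to DUSP4 have fold changes near its own by selection.

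Around these genes, the pathway was examined with lists of relatives, of the kinase cascade, of adaptors and Ras regulators, of other ERK-induced genes and of the CIC repressor complex. Of 10 relatives in the same families, 8 were tested, 1 was higher and none was lower with edgeR, or 12.5% and 0% against 12.8% and 13.3% of all tested genes. At an unadjusted p under 0.05, 3 were higher and 1 lower, and with DESeq2 1 was higher and 0 lower. The median log2 fold change was 0.013. Without sh1 replicate 3, 2 were higher and 1 was lower. The one that was higher was SPRY3, with a log2 fold change of 0.60 (SE 0.13, adjusted p = 0.0023) at a low level of 3.05 ± 0.415 CPM in shNC and 4.66 ± 0.603 CPM in sh1 (SD, n = 6 each). DUSP1, the immediate early MAP kinase phosphatase (-0.10, adjusted p = 0.55), and DUSP10, which acts on JNK and p38 (-0.23, adjusted p = 0.084), did not pass. DUSP10 did pass without shNC replicate 1 (adjusted p = 0.028) and without sh1 replicate 3 (adjusted p = 0.039). It also passed with all libraries when edgeR was run without a filter on low counts (-0.23, adjusted p = 0.031).

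In the cascade from Ras to ERK, 8 of 10 tested genes did not pass, 1 was lower and 1 higher (10% each, against 13.3% and 12.8% of all tested genes), with a median log2 fold change of -0.049. NRAS, a Ras GTPase, fell from 200 ± 7.27 CPM to 141 ± 7.504 CPM (SD, n = 6 each) without overlap, a log2 fold change of -0.50 (edgeR, SE 0.046, adjusted p = 7.1e-07). MAPK3, which encodes ERK1, was higher (0.39, SE 0.11, adjusted p = 0.012). MAP2K1, which encodes MEK1 (-0.10, adjusted p = 0.10), did not pass.

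Of 15 adaptors and Ras regulators, 3 rose (20%, against 12.8% of all tested genes), 1 fell (6.67%, against 13.3%) and 11 did not pass, with a median log2 fold change of -0.035. The adaptors SHC1 (0.35, adjusted p = 0.00033) and FRS2 (0.39, adjusted p = 0.00043), which link receptors to Ras, were higher without overlap between the groups. NF1, the Ras inactivator that SPRED proteins recruit, was also higher without overlap (0.17, adjusted p = 0.013 from edgeR), and it overlaps EVI2A on the opposite strand (-0.34). The Ras exchange factor SOS2 was lower (-0.27, adjusted p = 0.011). The phosphatase PTPN11 (-0.12, adjusted p = 0.086) and the RAF inhibitor PEBP1 (-0.11, adjusted p = 0.29) did not pass.

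Other genes that ERK is known to induce did not share 1 direction. Of 9 tested, 3 were lower (33.3%, against 13.3% of all tested genes), 1 was higher (11.1%, against 12.8%) and 5 did not pass, and their median log2 fold change was 0.073. CCND1 (cyclin D1), which drives entry into S phase, fell from 677 ± 65.0 CPM to 464 ± 50.6 CPM (SD, n = 6 each) without overlap, a log2 fold change of -0.55 (edgeR, SE 0.074, adjusted p = 3.6e-05). The ephrin receptor EPHA4 was lower (-0.44, adjusted p = 0.0024), and so was PHLDA1 (-0.27, adjusted p = 0.026), while EPHA2 was higher (0.28, adjusted p = 0.043). The calls of PHLDA1 and EPHA2 were lost under 10 and 13 of 24 alternatives, for PHLDA1 among them without sh1 replicate 3 (-0.23, adjusted p = 0.065). FOSL1, the AP-1 subunit that accumulates under lasting ERK activity, was at 248.7 ± 26.7 CPM in shNC and 262 ± 33.4 CPM in sh1 (0.073, adjusted p = 0.55), and neither IER3 (0.18, adjusted p = 0.22), EGR1 (0.057, adjusted p = 0.87) nor FOS (0.18, adjusted p = 0.74) passed. Without sh1 replicate 3, EGR1 was at -0.012 and FOS at -0.023.

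In the complex of the repressor CIC, which holds ETV and DUSP genes down until ERK relieves it, ATXN1 was higher (0.31, adjusted p = 0.014). ATXN1L was lower (-0.19, adjusted p = 0.043) and CIC itself did not pass (0.26, adjusted p = 0.057 from edgeR). Each direction thus held 1 of 3 genes (33.3%, against 12.8% higher and 13.3% lower of all tested genes), too few genes to read as a share. The calls on CIC and ATXN1L depended on the setting, since CIC passed under 7 of 24 alternatives, for example without sh1 replicate 3 (0.31, adjusted p = 0.026), and ATXN1L lost its call under 16. ATXN1L shares exonic bases with AP1G1, IST1 and ZNF821, as do CCND1 with LTO1 (497 bases, log2 fold change of LTO1 -0.073), SHC1 with PYGO2 (335 bases, 0.17) and SPRY3 with TMLHE (33 bases, 0.12). Further named genes share exonic bases with other genes, among them PTPN11 with RPL6 (111 bases, -0.092), MAP2K1 with SNAPC5 (216 bases, -0.18) and ATG13 with HARBI1 (329 bases, -0.31).

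**Figure D5:**
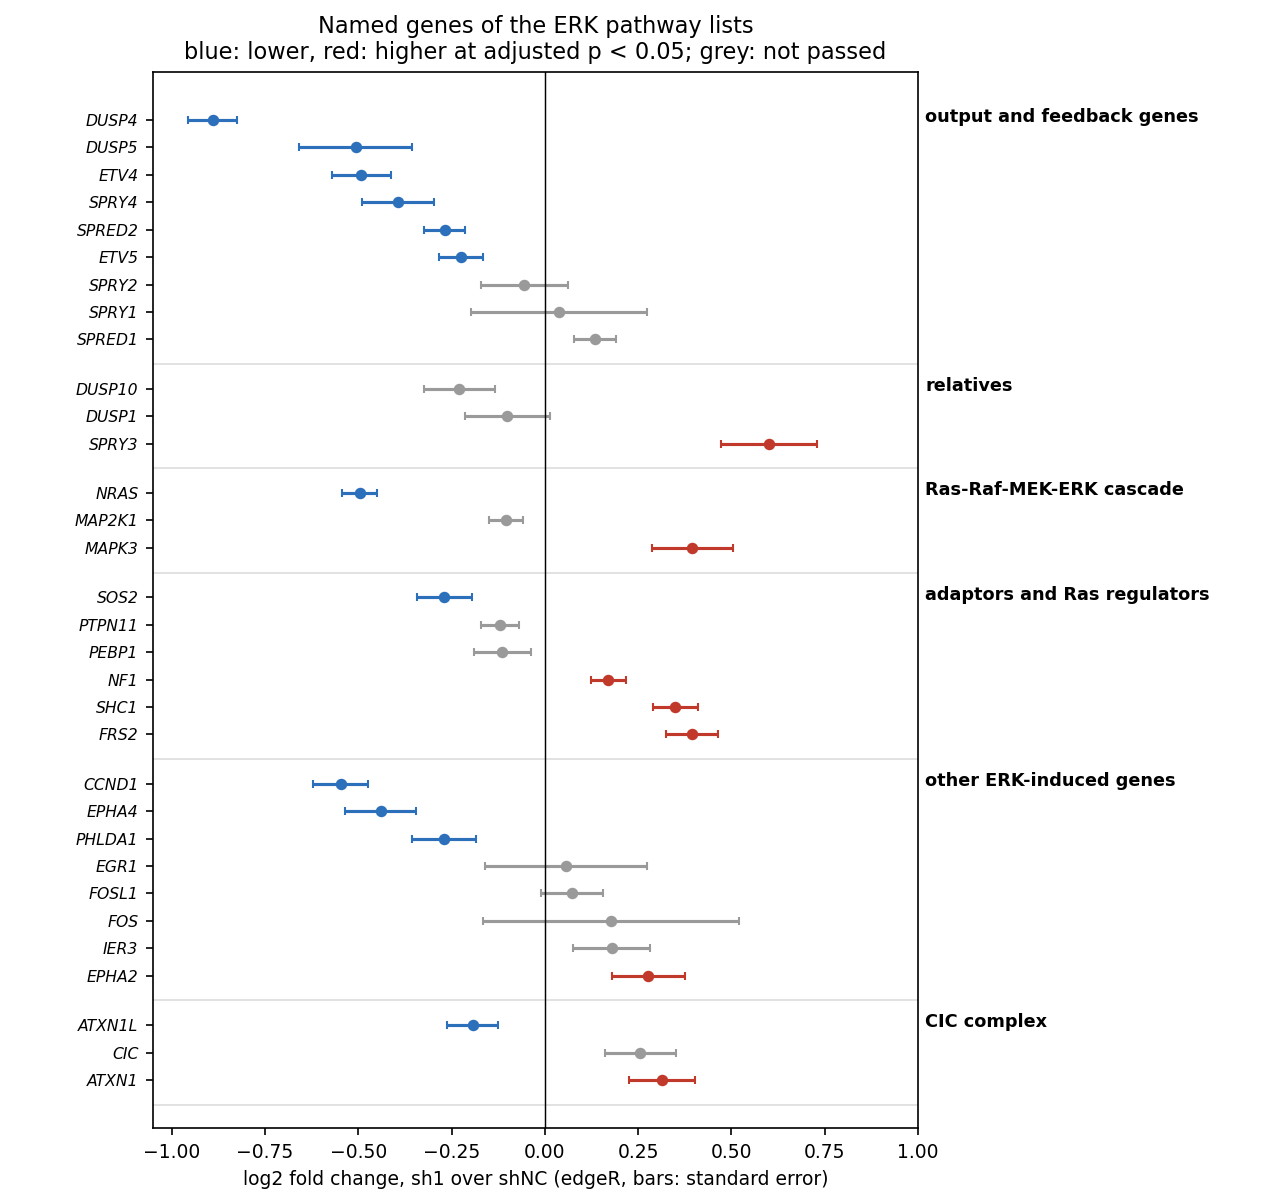
Log2 fold change, sh1 over shNC, with its standard error from edgeR for the genes of 6 lists that are named in the text. Blue points were lower and red points higher at an adjusted p under 0.05, and grey points did not pass. In the top block 6 of 9 points are blue, and in the cascade block NRAS at -0.50 is the only blue point and MAPK3 at 0.39 the only red point.

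These RNA levels come from bulk samples, in which a lower level in all cells and fewer cells with a high level cannot be told apart.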

How the data were processed

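Polyadenylated RNA of 12 libraries was sequenced as read pairs. Per the paper's methods, the authors aligned trimmed reads to GRCh38 with HISAT2 and counted them per gene with featureCounts (versions not given in the sources used here). They deposited gene counts, a signal in which each library's counts were scaled by its own DESeq2 size factor, and FPKM, which equals the counts per gene length and library total. The authors' comparisons were not used. Symbols and coordinates are from GENCODE 44 (GRCh38), which held 58207 of 58676 Ensembl identifiers. The 572 rows without one stayed in the totals.

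The test was edgeR's quasi-likelihood test (edgeR 4.0.16, R 4.3.3) on the counts after TMM scaling and filterByExpr, with p-values adjusted over all 16489 tested genes. Each standard error is the size of the log2 fold change over the root of its F statistic. Total counts, from 11239638 upwards, and a biological coefficient of variation of 0.11 set the precision. On counts simulated for the comparison of sh1 with shNC over 16489 genes, the test called 54 of 67 that were given a 1.5-fold change and 64 of 67 given a 2-fold change. It also called 11 unchanged genes. Changes under 1.5-fold were not simulated, so these numbers do not cover changes as small as that of ETV5. Each simulated gene was given the typical spread of genes at its level and not its own. The numbers thus do not cover genes that vary more, such as DUSP5 (SD 21.0% of the mean in shNC).

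The genes and lists were chosen with earlier results of these data known, so no list was tested as a set. From each list the text names the genes that passed and the 2 most abundant by FPKM that did not, and EGR1 and FOS were added after their values were seen. The result of 1 cascade gene is not reported here. Alternatives were other scalings, filters, DESeq2 1.42.0, robust dispersion, limma 3.58.1 on log2(FPKM + 1) and log2(FPKM + 0.1), a replicate block and leaving out each library.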

Additional observations from a re-analysis of the deposited data

Results flagged for a closer look

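DUSP5 and ATXN1 each had 1 library that Dixon's gap test set apart from the rest of its group of 6. The test sets apart about 1 in 20 groups by chance, which is 3.5 of the 70 groups examined over 35 genes, and it did so for 2. For DUSP5 this was shNC replicate 1, with 143 CPM (2496 counts), while the other controls lay between 259 and 284 CPM. For ATXN1 it was sh1 replicate 3, with 50.6 CPM, while the other sh1 libraries lay between 61.3 and 67.1 CPM. Leaving out that library changed the log2 fold change of DUSP5 from -0.51 to -0.62 and that of ATXN1 from 0.31 to 0.38.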

How the results depend on the processing

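DUSP4, ETV4 and SPRED2 were called lower under all 24 alternatives. Of the 6 genes called lower, 3 were called when limma was run unfiltered on log2(FPKM + 1), where DUSP5 (adjusted p = 0.19), SPRY4 (0.11) and ETV5 (0.094) lost the call, and where 1375 of all genes were lower in place of 2194. DUSP5 also lost it with robust dispersion (adjusted p = 0.076) and with limma on log2(FPKM + 1) (0.067) and on log2(FPKM + 0.1) (0.066). The cause was not tested. With 1 library left out, 5 to 6 of the 10 genes were lower and 0 to 1 higher. The sign of genes near 0 changed when a library was left out, with SPRY1 between -0.10 and 0.12, SPRY2 between -0.15 and 0.0079, EGR1 between -0.11 and 0.18 and FOS between -0.023 and 0.44.

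Of the lists, the relatives had 0 higher in unfiltered limma on log2(FPKM + 1) and 1 lower without a filter on counts, and 1 to 3 higher and 0 to 1 lower with a library left out. The cascade had 0 higher with that limma fit and 1 to 2 with a library left out, and the Ras regulators 0 lower with that fit. The other ERK-induced genes had 0 higher with robust dispersion, a replicate block and the 3 limma fits, and 0 to 2 with a library left out. The CIC complex had 2 higher with RLE, with upper quartile scaling and without a filter, and 0 with limma without a filter. It had 0 lower with library totals, without a filter, with a replicate block and with the 3 limma fits, and 1 to 2 higher and 0 to 1 lower with a library left out.

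Over all tested genes, 198 were higher and 146 lower past both the p threshold and a 2-fold change. These numbers were 464 and 257 without a filter, 105 and 76 when every library had to reach 10 counts, 12 and 21 with limma on log2(FPKM + 1), 15 and 25 with the same without a filter, 113 higher with limma on log2(FPKM + 0.1), and 320 higher with DESeq2. The replicate numbers gave no sign of pairing, since the correlation of same-numbered deviations was -0.16 to 0.033. With a replicate block the same 6 genes were called lower, and NF1 (adjusted p = 0.051), PHLDA1 (0.060), EPHA2 (0.069) and ATXN1L (0.055) lost their call. SPRY1 and DUSP6, at 3 to 20 counts per library, are limited by depth.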
